A study of Mus musculus with 6 samples.

Results

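The genes described here are 10 members of the intermediate filament family: the keratins Krt7, Krt8, Krt18 and Krt19, the vimentin, desmin, nestin and synemin genes (Vim, Des, Nes and Synm), and the lamin genes Lmna and Lmnb1. They were chosen by name, and every probe set that the platform annotation pairs with one of them alone was taken, which gave 23 of the 45037 probe sets on the array. All 10 genes were measured among 18193 genes in all, and 0 further probe sets were paired with a member together with another gene. The juxtaglomerular (JG) group held 3 samples of yellow fluorescent cells sorted from adult C57BL6 mice that carry the Ren1c YFP reporter, a fluorescent mark of renin-expressing cells of the kidney's afferent arteriole. The MSC group held 3 samples of renal mesenchymal stromal cells from mice of the same strain and genotype, which were sorted by the surface antigen CD44 and cultured to confluence in serum-containing medium. Both groups thus shared the reporter, and culture differed along with cell type as far as the labels say, although the same growth medium is also written on the JG samples. Nothing in the labels tells separate from pooled animals or cultures, so p-values measure only the spread between these samples, which may be technical.

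Intermediate filaments are rope-like polymers of coiled-coil proteins that give cells and nuclei mechanical strength. Keratins form obligate pairs of a type I chain (Krt18 and Krt19) with a type II chain (Krt7 and Krt8) and mark epithelia, whereas vimentin is the filament of mesenchymal cells, desmin that of muscle and mural cells, and nestin and synemin are large partners that co-assemble with them. In the kidney, keratins 8 and 18 are known from tubular epithelium, keratins 7 and 19 from collecting duct and urothelium, and desmin, vimentin and nestin from mesangial cells, podocytes or vessels. Lamins line the inside of the nuclear envelope in nearly every cell.

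The 250 bases before the annotated start of the 3 keratin genes that were higher in JG and of 2 filament genes that were higher in MSC are given here, so that the genes the results turn on can be set beside their promoters. They come from RefSeq on build GRCm38.p6, where 8 of the 10 genes had an entry and Krt19 and Lmnb1 had none, and capitals mark matches to the motifs searched.
Krt8, chr15:102004343-102004592, minus strand: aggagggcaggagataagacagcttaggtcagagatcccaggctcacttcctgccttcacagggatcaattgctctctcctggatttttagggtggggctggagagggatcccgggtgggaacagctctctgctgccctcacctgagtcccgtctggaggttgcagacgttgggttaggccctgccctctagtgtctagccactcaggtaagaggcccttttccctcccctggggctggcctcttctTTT
Krt18, chr15:102027966-102028215, plus strand: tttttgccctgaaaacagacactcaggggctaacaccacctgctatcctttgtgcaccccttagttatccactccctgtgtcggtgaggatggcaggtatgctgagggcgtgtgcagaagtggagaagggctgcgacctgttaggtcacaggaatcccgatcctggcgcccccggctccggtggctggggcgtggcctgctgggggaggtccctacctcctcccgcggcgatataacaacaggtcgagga
Krt7, chr15:101412153-101412402, plus strand: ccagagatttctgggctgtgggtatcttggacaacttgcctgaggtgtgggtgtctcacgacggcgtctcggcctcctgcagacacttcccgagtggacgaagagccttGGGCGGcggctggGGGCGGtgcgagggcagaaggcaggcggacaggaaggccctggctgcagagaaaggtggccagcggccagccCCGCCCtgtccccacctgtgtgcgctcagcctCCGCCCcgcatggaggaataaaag
Vim, chr2:13574061-13574310, plus strand: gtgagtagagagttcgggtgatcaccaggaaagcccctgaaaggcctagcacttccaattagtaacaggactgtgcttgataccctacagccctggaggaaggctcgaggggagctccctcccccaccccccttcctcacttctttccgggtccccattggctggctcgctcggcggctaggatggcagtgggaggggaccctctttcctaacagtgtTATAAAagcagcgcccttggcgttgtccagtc
Nes, chr3:87970843-87971092, plus strand: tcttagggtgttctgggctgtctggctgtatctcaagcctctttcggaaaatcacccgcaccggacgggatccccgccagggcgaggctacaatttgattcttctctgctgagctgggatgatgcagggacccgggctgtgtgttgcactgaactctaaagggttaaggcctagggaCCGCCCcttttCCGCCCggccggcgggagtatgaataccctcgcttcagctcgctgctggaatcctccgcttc

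The motifs were TATAAA (the TATA box), GGGCGG (the GC box bound by Sp1) and TGANTCA (the AP-1 site), searched on both strands of the table's windows, which run from 250 bases before to 50 bases after the start. TATAAA was present near the start of Vim, with its first letter 32 bases before it, and on both strands across the start of Krt8, where only the first letters of the overlapping matches lie in the stretch shown. GGGCGG matched 4 times before Krt7 and 2 times before Nes. TGANTCA matched in none of the 5 windows, and Krt18 had no match to any of the 3 motifs. Of 32851 windows of 300 bases in the table, 13.6% held TATAAA, 35.7% GGGCGG and 7.81% TGANTCA. The TATA box letters and the GC box letters each matched in a gene higher in JG and in a gene higher in MSC. Krt8 and Krt18 lie close together on mouse chromosome 15, with 2 unnamed gene models between them, and Krt7 lies on the same chromosome with 31 genes between it and Krt8, many of them other type II keratins.

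Values are linear probe set intensities as deposited, and each gene is represented by the probe set with the highest mean of log2(intensity + 16) over all 6 arrays, called its brightest or representative one here. A log2 difference is the JG mean minus the MSC mean of log2(intensity + 16), given with its SE. The added 16 understates changes of dim genes. The adjusted p-values come from limma over all 18193 genes unless the probe sets are named, when they are over all 45037. A gene is called when its adjusted p is below 0.05. Array medians ran from 27.3 to 36.5, correlations across genes were 0.971 to 0.975 within MSC and 0.807 to 0.887 within JG, and JG sample 2 had the lowest mean intensity of the 6 arrays (223). Having only 3 arrays per group limits the precision. No detection calls were at hand, so a low value is an intensity and says nothing of absence. Renin itself was not analysed here because no probe set is paired with that gene alone. Of 8 other renin cell markers measured, Crip1, Rgs2 and Rgs5 were higher in JG and Foxd1 lower. In total RNA of a sorted population, fewer cells of a type and less RNA per cell cannot be told apart.

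The 10 members fell into 3 sets. Krt7, Krt8 and Krt18 rose in JG relative to MSC, with no overlap between the groups. Nes, Vim and Lmna were higher in MSC, again with no overlap. Krt19, Des, Synm and Lmnb1 were not called, and their groups overlapped. Thus 3 members were called in each direction, 6 of 10 in all, where 15.3% of all genes were called (7.7% higher in JG and 7.63% higher in MSC). The groups did not overlap for the same 6 members, as they did not for 38.7% of all genes (20.2% with JG above and 18.5% with MSC above). The median difference over the 10 members was -0.16, against 0.07 over all genes. At the level of probe sets, 5 of 23 were called higher in JG and 7 higher in MSC, where 4.23% and 5.57% of all probe sets were (9.8% in either direction). The groups did not overlap for 5 probe sets with JG above and 8 with MSC above, against 16.1% and 18.1% of all probe sets (34.2% in either direction).

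**Figure D1:**
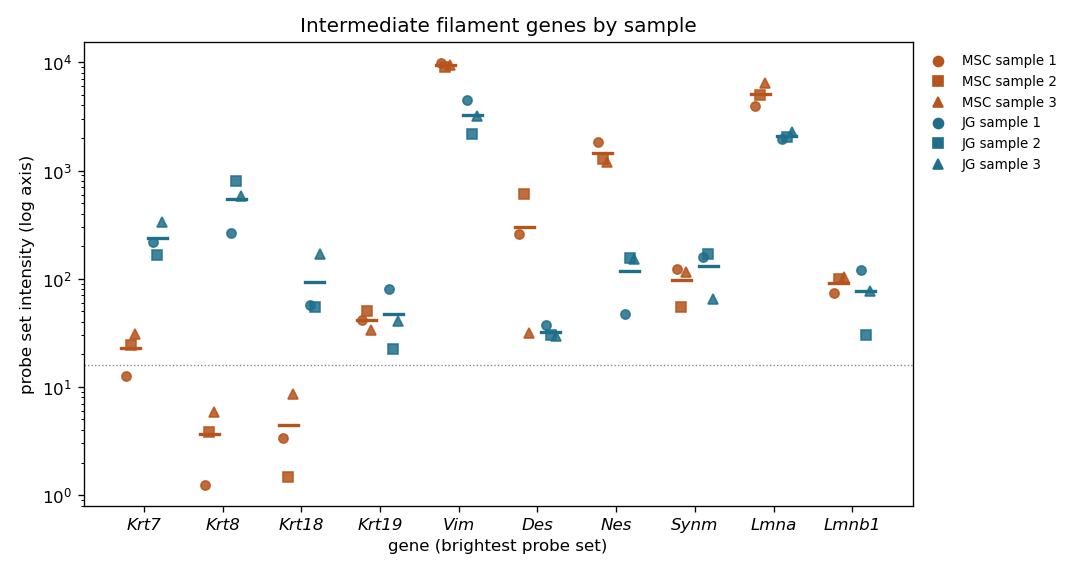
Intensity (log axis) of the brightest probe set of each member in the 3 MSC samples (brown) and 3 JG samples (blue), with a bar at each group's mean and a dotted line at 16, the value added before taking log2. Krt7, Krt8 and Krt18 stand higher in all JG samples than in any MSC sample, Vim, Nes and Lmna stand lower, and Des is high in MSC samples 1 and 2 only.

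Krt8, the type II keratin of simple epithelia, had the largest difference among the members. Its representative probe set read 1.24, 3.8 and 5.9 in MSC samples 1 to 3 and 262.5, 792.44 and 583.02 in JG samples 1 to 3. Every MSC value was near the floor of the array and the lowest JG value was 262.5, so the size of the fold change is set by values near that floor. The log2 difference was 4.71 ± 0.42 (limma adjusted p = 0.00107). With 1 added it was 6.88. With 64 added it was 3.06, where that of Nes was -3.09. The other probe sets gave the same direction: one read at most 1.27 in MSC and 258.97, 344.25 and 1043.87 in JG (4.79 ± 0.51, adjusted p = 0.00412 over probe sets), and another at most 1.98 in MSC and 167.57, 163.73 and 681.79 in JG (4.03 ± 0.55, adjusted p = 0.00946). The order of the JG samples differed between probe sets: sample 2 was highest on the representative one and sample 3 on both others.

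Krt18, the type I partner of Krt8, was read by a single probe set. It stood at 3.37, 1.47 and 8.59 in MSC and at 56.7, 54.34 and 167.79 in JG. All MSC values were below 16, and JG sample 3 was far brighter than JG samples 1 and 2, which were alike. This gave a log2 difference of 2.27 ± 0.43 (limma adjusted p = 0.0177). The call was lost without any 1 of the MSC samples, where the adjusted p was 0.0757, 0.0824 and 0.0609 without MSC samples 1, 2 and 3, while the difference stayed between 1.82 and 2.51 in all 6 fits with 1 sample left out. It was lost too with 64 added in place of 16 (1.12, limma adjusted p = 0.0623) and with an unmoderated t (adjusted p = 0.0801), and with 1 added the difference was 4.12 and called.

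Krt7, a type II keratin of ductal epithelium, was dim in MSC, with MSC sample 1 below 16, though brighter there than Krt8 and Krt18. It read 12.69, 24.63 and 31.13 in MSC and 220.36, 164.23 and 330.86 in JG, so that the lowest JG value was 5.28 times the highest MSC value. Its log2 difference was 2.69 ± 0.34 (limma adjusted p = 0.00417), and the call held in all 6 fits with 1 sample left out. The difference was 3.36 with 1 added and 1.77 with 64 added, and was called with either. Krt7 and Krt8 were the members higher in JG whose call did not depend on any 1 sample.

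Krt19, a type I keratin without the tail domain of other keratins, showed no such pattern. It stood at 41.51, 50.7 and 33.72 in MSC and at 80.1, 22.19 and 40.35 in JG. JG sample 1 was the highest of all 6 samples and JG sample 2 the lowest, so the JG values enclosed the MSC values. The fitted difference was 0.04 with a 95% interval from -0.87 to 0.95 (limma adjusted p = 0.955). Whether its difference departed from those of the other 3 keratins was not tested.

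The nephron segment marker lists summed higher in every JG sample than in any MSC sample. Krt7, Krt8 and Krt18 were higher in JG too, while Krt19 was not called. Of 8 measured genes of general renal epithelium, 3 were higher in JG, namely the cadherin genes Cdh1 and Cdh16 and the adhesion molecule gene Epcam, named after their values were seen, and 0 were called higher in MSC. The transcription factor genes Emx2 (log2 difference -1.07, limma adjusted p = 0.104) and Pax8 (-1.09, 0.0671), Pax8 named after its values were seen, lay lower in every JG sample than in any MSC sample without a call. Cdh16 read 3578, 2925 and 4452 in JG and 35.8 to 52.8 in MSC. The summed intensity of that list was 4074 to 6149 in JG and 980 to 1569 in MSC. All 8 proximal tubule markers, 5 of 6 of the thick ascending limb, 5 of 5 of the distal tubule and 5 of 10 of the collecting duct were higher in JG as well. The collecting duct list, led by the water channel gene Aqp3 and the proton pump gene Atp6v1b1, summed to 5338, 2982 and 5256 in JG samples 1 to 3 and to 95.6 to 149 in MSC. JG sample 2 was lowest in this sum and lowest of the JG samples for Krt7, Krt18 and Krt19, while for Krt8 it was highest, middle or lowest depending on the probe set. Of 6 urothelial markers 0 were called in either direction (limma adjusted p from 0.111 to 0.919, 2 with an unadjusted p below 0.05), with sums of 136 to 212 in JG and 75.1 to 182 in MSC, and Upk2 was listed at exactly 1 on all 3 JG arrays. The part of epithelial cells in the keratin differences was not tested.

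**Figure D2:**
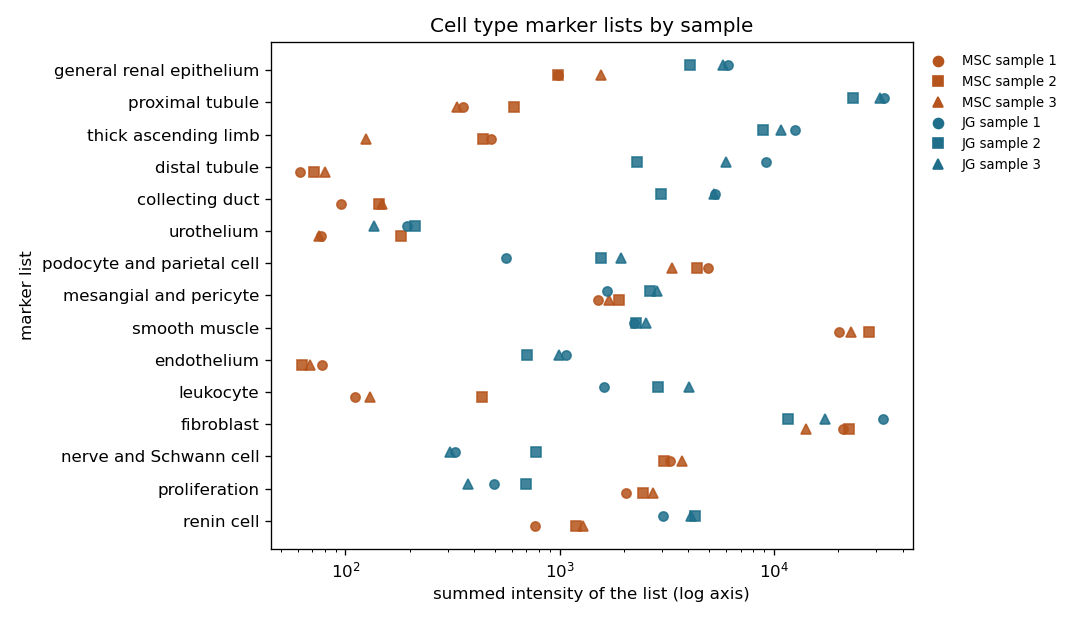
Summed intensity (log axis) of 15 lists of cell type markers in each MSC sample (brown) and JG sample (blue). The 4 nephron segment lists and the general renal epithelium, renin cell, endothelial and leukocyte lists are higher in every JG sample than in any MSC sample. The smooth muscle, podocyte and parietal cell, nerve and proliferation lists are lower. The urothelium, mesangial and pericyte, and fibroblast lists overlap between the groups.

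Among the other keratins, 44 genes were measured, of which 2 were called higher in JG and 0 higher in MSC by limma (10 and 0 at an unadjusted p below 0.05). The share called higher in JG was thus below the 7.7% of all genes. At an unadjusted p below 0.05, by contrast, 22.7% lay in the JG direction, against 15.3% of all genes. In the MSC direction it was 0%, against 16.5%. Of the 44, 14 lay below 16 on every array and 36 below 50 on every array, so that most of the stratified-epithelium and hair keratins were dim in both groups. Krt5 and Krt14, the keratin pair of basal epithelial cells, read 21.9 to 52.5 and 6.09 to 15.6 in JG and 7.98 to 18.9 and 5.95 to 9.08 in MSC, and neither was called (limma adjusted p = 0.113 and 0.775). The list median was 0.28, and the JG samples lay above the MSC samples without overlap for 14 genes and below for 2 of the 44, where 20.2% and 18.5% of all genes did.

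Krt72, a type II keratin of the hair follicle's inner root sheath, was the exception in brightness. Its only probe set read 608.66, 219.19 and 284.93 in MSC and 1956, 5194 and 4578 in JG, with a log2 difference of 3.35 ± 0.52 (limma adjusted p = 0.00927, and 0.0508 without MSC sample 3). The probe set was therefore bright in both groups and brighter in all JG samples. Whether it reads Krt72 transcripts was not tested, and it has no other probe set to set it against. Krt79, the other called gene, lay between 11.0 and 12.6 in MSC and read 28.1, 36.1 and 40.6 in JG (0.88 ± 0.22, limma adjusted p = 0.0438), and kept its call in 1 of the 6 fits with 1 sample left out, that without JG sample 1. After limma adjustment over all probe sets Krt79 was not called (adjusted p = 0.0509). Krt10, the type I keratin of differentiated epidermis, ranged from 76.7 to 334 in JG and from 78.0 to 346 in MSC and was not called (limma adjusted p = 0.869). Without JG sample 1, 7 of the 44 were called higher in JG, in a fit that called 14% of all genes so, and in the other 5 fits with 1 sample left out 0 to 1 were, with 0 without MSC sample 3.

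**Figure D3:**
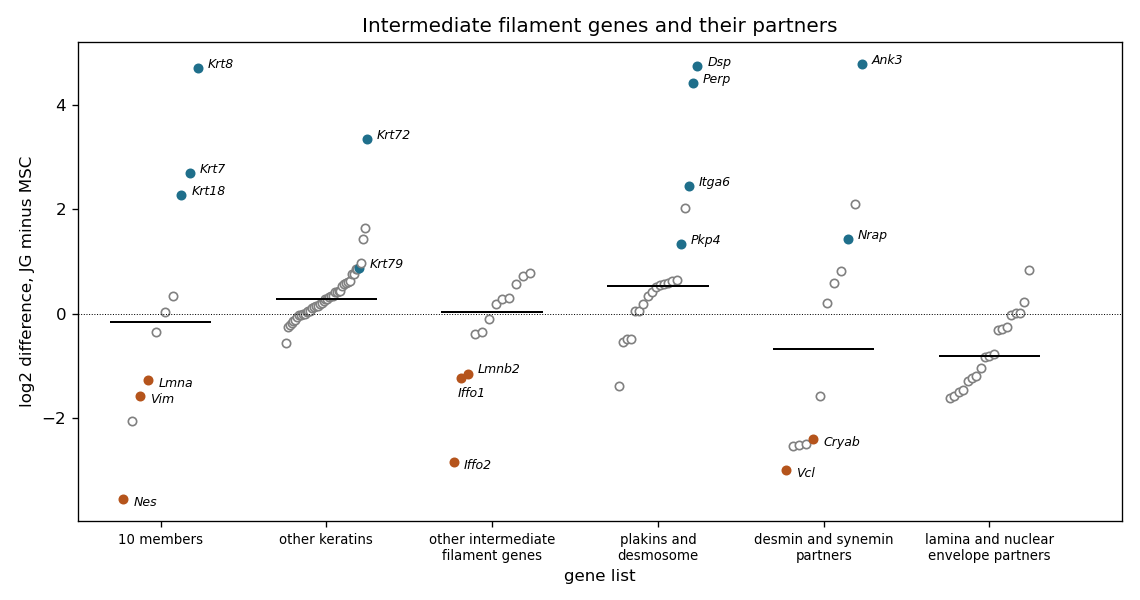
Log2 difference, JG minus MSC, of each measured gene in 6 lists (points in order of size), with filled points for genes called at an adjusted p below 0.05 in limma, blue for higher in JG and brown for higher in MSC, and a black line at each list's median. Among the members, the called keratins Krt7, Krt8 and Krt18 lie above 0 and the called genes Nes, Vim and Lmna below it, with the other 4 as open points on both sides, and all 19 lamina and nuclear envelope partners are open points.

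Keratin filaments are anchored at the cell surface by desmosomes and hemidesmosomes, through linkers called plakins. Of 20 measured genes of these structures, limma called 4 in the JG direction and 0 in the other (1 had an unadjusted p below 0.05 in the MSC direction), with a list median of 0.53. Over all genes, 7.7% and 7.63% were called and the median was 0.07. At an unadjusted p below 0.05, 20% of the list lay in the JG direction and 5% in the MSC direction, against 15.3% and 16.5% of all genes. Dsp, which encodes desmoplakin, the linker that ties keratins to desmosomes, read 32.6, 18.8 and 69.9 in MSC and 305, 3533 and 2460 in JG. On this probe set JG sample 1 was thus far below JG samples 2 and 3, yet above every MSC sample. The difference in log2 was 4.75 ± 0.93 (limma adjusted p = 0.0199), and the adjusted p rose to as much as 0.0881 when an MSC sample or JG sample 3 was left out. A dimmer Dsp probe set read 56.2, 46.0 and 127 in JG samples 1 to 3 (2.06 ± 0.36, limma adjusted p = 0.0201 over probe sets). Another gave 2.45 ± 0.61 without a call (adjusted p = 0.0589). Perp, a membrane protein of desmosomes, was steadier: 13.1, 29.0 and 3.78 in MSC and 578, 730 and 553 in JG (4.42 ± 0.35, limma adjusted p = 0.000699).

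Itga6, an integrin chain of hemidesmosomes, stood at 102, 102 and 109 in MSC and 617, 672 and 639 in JG (2.45 ± 0.21, limma adjusted p = 0.000858). Its hemidesmosome partner Itgb4 read 2.41 to 5.51 in MSC and 7.33 to 12.3 in JG and was not called (limma adjusted p = 0.337). Pkp4, a plakophilin family gene that is also expressed outside desmosomes, was 1060 to 1293 in MSC and 2701 to 3523 in JG (1.34 ± 0.23, limma adjusted p = 0.0133), a call that was lost without any 1 of the MSC samples (adjusted p at most 0.0707). The desmosomal cadherin genes Dsg2 and Dsc2 were dim, with at most 99.5 and 29.5 on any array, and were not called. The broad cytolinker genes Plec, Dst and Macf1, which also bind vimentin, actin or microtubules, were bright in both groups without a call (limma adjusted p 0.435 to 0.663). Pkp2 was 605 to 657 in MSC and 108 to 437 in JG with no overlap and was not called (-1.39 ± 0.47, limma adjusted p = 0.102). The 4 calls became 2 without any 1 of the MSC samples.

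Vim, the gene of the mesenchymal filament protein, was among the brightest genes in both groups. Its representative probe set, at the 99.6th percentile of mean level, read 9759, 9086 and 9470 in MSC and 4509, 2155 and 3214 in JG. The MSC samples were close together, whereas JG sample 1 was much brighter than JG sample 2. The log2 difference was -1.58 ± 0.32 (limma adjusted p = 0.0219), so that Vim remained bright in JG. The second probe set gave 7711, 5593 and 6774 against 2039, 1191 and 1665 (-2.05 ± 0.28, adjusted p = 0.00952 over probe sets). The third, whose plain mean intensity over the arrays was slightly above that of the representative one, gave 10294, 9791 and 10259 against 4876, 1171 and 2817 and was not called (-1.99 ± 0.51, adjusted p = 0.0638). The gene's call was lost without any 1 of the MSC samples (adjusted p = 0.0888, 0.0869 and 0.0920 without samples 1, 2 and 3) or without JG sample 3 (0.0604), with the difference between -1.84 and -1.31 throughout.

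Nes, the nestin gene, showed the largest difference in the MSC direction and by all 3 of its probe sets. Its brightest probe set read 1854, 1279 and 1210 in MSC and 47.4, 157 and 151 in JG. The lowest MSC value was 7.71 times the highest JG value, and JG sample 1 was lowest. This gave a log2 difference of -3.55 ± 0.45 (limma adjusted p = 0.00427), and the call held in all 6 fits with 1 sample left out. The others read 589, 613 and 472 against 8.7, 13.3 and 21.5 (-4.25 ± 0.25, adjusted p = 0.000475 over probe sets), and 551, 614 and 371 against 3.33, 5.81 and 17.5 (-4.42 ± 0.32, adjusted p = 0.00102). JG sample 1 was the lowest sample on all 3.

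Some marker lists of cells in which nestin or vimentin is known to be found were higher in MSC as well. The proliferation list had 6 of 7 genes higher in MSC, with sums of 2035 to 2731 in MSC and 375 to 699 in JG. The podocyte and parietal cell list had 3 of 6 higher in MSC, Synpo and Cldn1 among them, with sums of 3364 to 4953 in MSC and 562 to 1946 in JG. The podocyte genes Nphs1 and Podxl, named after their values were seen, lay higher in every JG sample than in any MSC sample without a call (log2 differences 0.84, limma adjusted p = 0.218, and 1.59, 0.0762). The endothelial list went the other way, with 5 of 9 higher in JG and sums of 706 to 1075 in JG and 62.8 to 77.7 in MSC, as did the leukocyte list, with 4 of 8 higher in JG and sums of 1610 to 4017 in JG and 110 to 435 in MSC. The fibroblast list had 3 of 8 higher in JG, and its sums overlapped (11673 to 32490 in JG and 14108 to 22468 in MSC). JG sample 1 had the highest fibroblast sum and the highest Vim of the JG samples, on all 3 Vim probe sets. The part of these cells and of proliferation in the Nes and Vim differences was not tested.

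Des, the desmin gene of muscle and mural cells, divided the MSC samples. Its brighter probe set read 261.42, 604.36 and 31.21 in MSC samples 1 to 3 and 37.36, 30.19 and 29.83 in JG. MSC samples 1 and 2 were above every JG sample, while MSC sample 3 lay within the JG range. The log2 difference of -2.06 ± 0.89 was not called (limma adjusted p = 0.171, 95% interval -4.20 to 0.09). Without MSC sample 3 it was -3.10 and called (adjusted p = 0.0178), and without MSC sample 2 it was -1.24 (adjusted p = 0.392). The other Des probe set was at most 8.49 on every array and was not called (-0.04 ± 0.24, adjusted p = 0.939 over probe sets).

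Smooth muscle markers as a sum ordered the MSC samples in another way than Des. The smooth muscle list summed to 20082, 27741 and 22941 in MSC samples 1 to 3 and to 2215 to 2521 in JG, with 7 of 8 genes higher in MSC, including Acta2 and Tagln, and Myh11 higher in JG. MSC sample 3, which had Des at the JG level, was between the other two in this sum. Mesangial and pericyte markers had 1 of 8 called in each direction, Rgs5 higher in JG and Pdgfrb higher in MSC, with sums of 1671 to 2858 in JG and 1514 to 1901 in MSC. The groups did not overlap for 4 of the 8 with JG above and 1 with MSC above, against 20.2% and 18.5% of all genes. The list median was 0.99, against 0.07 over all genes.

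Synm, the synemin gene, was not called by either probe set. The brighter one read 121.77, 54.4 and 115.45 in MSC and 157.19, 170.83 and 64.59 in JG (0.34 ± 0.44, limma adjusted p = 0.634, 95% interval -0.72 to 1.41). The other read 41.15, 24.69 and 41.57 in MSC and 14.97, 207.56 and 35.08 in JG, where JG sample 2 stood alone (0.47 ± 0.72, adjusted p = 0.722 over probe sets). The groups overlapped on both, and JG sample 2 was the highest sample on both.

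Of 12 genes whose products sit with desmin and synemin at Z-discs and costameres, limma called 2 in each direction, with a list median of -0.68. Over all genes, 7.7% were called higher in JG and 7.63% higher in MSC, and the median was 0.07. At an unadjusted p below 0.05, 25% of the list lay in the JG direction and 41.7% in the MSC direction, against 15.3% and 16.5% of all genes. Cryab, the small heat shock chaperone of desmin, read 5642, 5448 and 5889 in MSC and 1399, 711 and 1181 in JG (-2.40 ± 0.31, limma adjusted p = 0.00427). Vcl, the vinculin gene, to whose product synemin binds, read 2928, 2781 and 1882 in MSC and 471, 183 and 303 in JG (-3.00 ± 0.39, limma adjusted p = 0.00477). Both kept their call in all 6 fits with 1 sample left out. A dimmer Cryab probe set gave -3.49 without a call (adjusted p = 0.0522 over probe sets), and another was at most 18.9 on every array.

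Ank3, an ankyrin of membrane domains that is also strongly expressed in tubular epithelium, read 58.4, 14.9 and 185 in MSC and 1642, 2199 and 2591 in JG (4.78 ± 0.66, limma adjusted p = 0.00600). Of the 6 Ank3 probe sets, limma called 3, each higher in JG. Nrap, an actin-binding gene of striated muscle, read 31.8 to 40.0 in MSC and 95.5 to 151 in JG (1.43 ± 0.25, limma adjusted p = 0.0134), and its call was lost without any 1 of the MSC samples (adjusted p at most 0.0705). Flnc, Bag3 and Dmd were lower in every JG sample than in any MSC sample without being called (limma adjusted p = 0.244, 0.0771 and 0.0542), and Flnc in JG ran from 5.02 in sample 2 to 714 in sample 1.

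**Figure D4:**
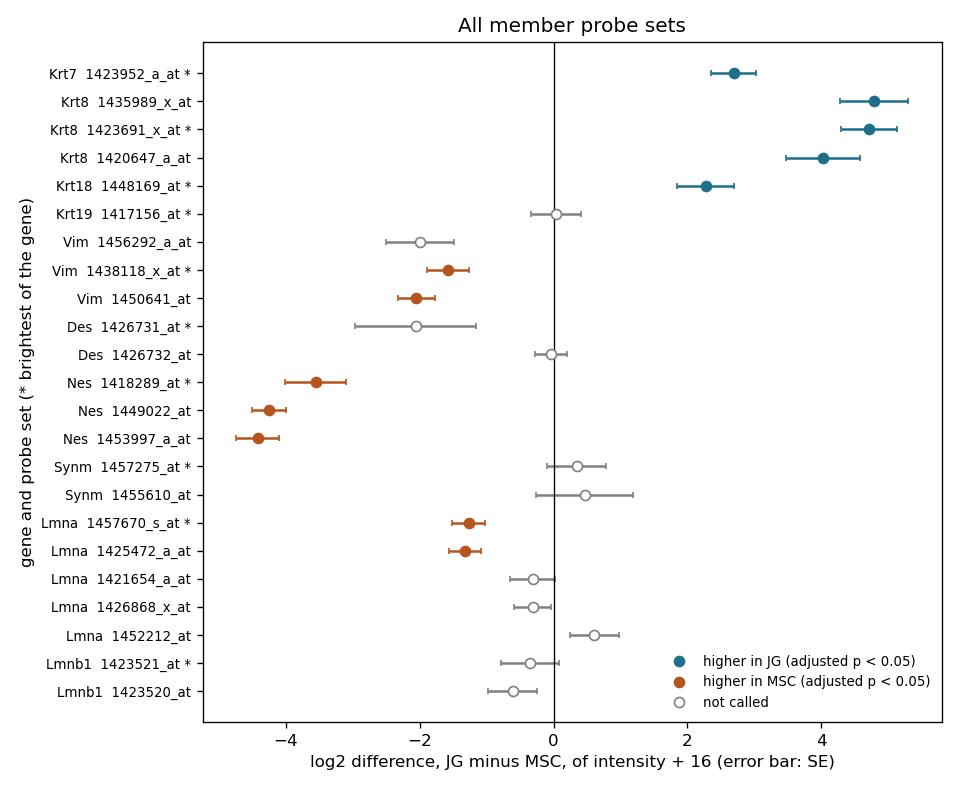
Log2 difference, JG minus MSC, of intensity plus 16 for all 23 member probe sets, with the SE from limma as error bar, filled where the adjusted p over all 45037 probe sets is below 0.05. The 3 Krt8 and 3 Nes probe sets lie on 1 side each, while of 5 Lmna probe sets 2 are called higher in MSC and 3 lie nearer 0.

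Lmna, which encodes the A-type lamins that scale with tissue stiffness, was higher in MSC on its 2 brightest probe sets and not called on the other 3. The brightest read 3976, 4955 and 6400 in MSC and 1937, 2031 and 2260 in JG. The JG samples were close together and every MSC sample was above them. Its log2 difference was -1.27 ± 0.26 (limma adjusted p = 0.0238). The second read 1251, 1013 and 1098 against 352, 458 and 519 (-1.32 ± 0.24, adjusted p = 0.0227 over probe sets). The third read 309, 295 and 399 against 198, 419 and 220, so that JG sample 2 was the highest of all (-0.31 ± 0.34, adjusted p = 0.598). The last 2 were at most 28.9 on any array. With the mean of the 5 probe sets in place of the brightest, the difference was -0.52 and not called (limma adjusted p = 0.177). The call was also lost without any 1 of the MSC samples (0.0506, 0.0969 and 0.0985) or without JG sample 3 (0.0535).

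The B-type lamin genes were dimmer. Lmnb1 read 73.9, 99.37 and 102.98 in MSC and 121.58, 29.9 and 77.59 in JG on its brighter probe set, with JG sample 1 highest and JG sample 2 lowest of all 6 (-0.35 ± 0.43, limma adjusted p = 0.614, 95% interval -1.39 to 0.68). Its other probe set had the same highest sample and JG sample 3 lowest (-0.61 ± 0.37, adjusted p = 0.342 over probe sets). Lmnb2, which was not a member, read 118, 160 and 154 in MSC and 76.1, 34.3 and 60.4 in JG (-1.16 ± 0.30, limma adjusted p = 0.0491), a call that held in 1 of the 6 fits with 1 sample left out, that without JG sample 1, and in 2 of the 12 other alternatives. After limma adjustment over all probe sets this probe set was not called (adjusted p = 0.0623). The other Lmnb2 probe set was dim in both groups and was not called either (0.05 ± 0.21). The proliferation sums were higher in every MSC sample, and their part in these values was not tested.

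None of the 19 measured genes of the nuclear envelope that bind, process or anchor lamins was called by limma in either direction (at an unadjusted p below 0.05, 0 lay in the JG direction and 5, or 26.3%, in the MSC direction, where 16.5% of all genes did). The list median was -0.80, against 0.07 over all genes, and 6 of the 19 were lower in every JG sample than in any MSC sample, where 18.5% of all genes were. Sun2, which links lamins to the cytoskeleton across the envelope, was 3196 to 4676 in MSC and 882 to 2530 in JG (-1.23 ± 0.43, limma adjusted p = 0.108). Emd, the emerin gene, was 1935 to 3145 in MSC and 1172 to 1540 in JG (-0.77 ± 0.28, limma adjusted p = 0.119). JG sample 2, the array with the lowest mean intensity, gave the lowest value of all 6 samples for 12 of the 19 genes, 63.2%, against 27.3% of all genes. The median of that array, 28.96, was not the lowest, which was 27.3 in MSC sample 2. In the other lists JG sample 2 was lowest for 30% of the members, 6.82% of the other keratins and 5% of the plakin and desmosome genes. The share was 25% for the other filament genes and 41.7% for the partners of desmin and synemin. Without JG sample 1, 4 of the 19 were called higher in MSC and 1 higher in JG, in a fit that called 14.5% and 14% of all genes. Without JG sample 2, 1 was called higher in MSC and 0 higher in JG (7.07% and 8.46% of all genes).

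The remaining filament genes comprised neuronal, glial and lens filaments, the muscle protein gene Sync, Lmnb2 and a pair of related genes. Of 12, 3 were higher in MSC and 0 higher in JG by limma (2 in the JG direction at an unadjusted p below 0.05). Over all genes, 7.63% were called higher in MSC and 7.7% higher in JG. At an unadjusted p below 0.05, 25% of the list lay in the MSC direction and 16.7% in the JG direction, against 16.5% and 15.3% of all genes. Iffo2, an intermediate filament family orphan, read 1038, 911 and 465 in MSC and 204, 59.4 and 60.3 in JG (-2.85 ± 0.53, limma adjusted p = 0.0172), and its second probe set gave -3.45 (adjusted p = 0.000967 over probe sets). Iffo1 read 73.2 to 86.6 against 15.8 to 45.1 (-1.24 ± 0.31, limma adjusted p = 0.0436) and was not called by any of its 3 probe sets after adjustment over all probe sets. The call of Iffo2 was lost without MSC sample 1 or 2 or JG sample 3 (adjusted p at most 0.0795), and that of Iffo1 held only without JG sample 3 (at most 0.157 in the others). The glial gene Gfap and the neurofilament genes Nefl, Nefm and Nefh were at most 26.3 on every array, although the nerve and Schwann cell list had 2 of 5 genes, Ncam1 and Tubb3, higher in MSC. Sox10, on the same list and named after its values were seen, read 33.09, 665.25 and 123.24 in JG and 16.06 to 21.85 in MSC. It thus lay higher in every JG sample than in any MSC sample without a call (2.28 ± 0.89, limma adjusted p = 0.140).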

How the data were processed

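Biotin-labelled cRNA made from 100 ng total RNA of 6 samples was measured on mouse Affymetrix arrays, per the labels' protocols. The authors deposited a linear intensity for each probe set on each array. Probe summarisation and array scaling by the authors are not stated in the labels. Probe sets were named through the platform annotation, whose symbols can be old, 34945 with 1 gene, 932 with several, which were not used, and 9160 with none listed, and 0 symbols changed through RefSeq identifiers. Log2(intensity + 16) was fitted with limma 3.58.1 (R 4.3.3) without normalization, filter or covariate, using lmFit, eBayes and Benjamini-Hochberg adjustment at 0.05, at gene level (brightest probe set) and over all 45037 probe sets. The fit was tested on simulated data. Alternatives changed 1 choice at a time (18 settings). The text names all members, up to 4 called genes per direction of each partner list, Lmnb2, and up to 2 markers per cell type list; other genes were named after their values were seen. Members and lists were chosen with earlier results of these data known. Motifs were searched in RefSeq promoter windows. Figures used matplotlib 3.10.9.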

Additional observations from a re-analysis of the deposited data

How the results depend on the processing

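The 3 members higher in JG were 2 to 3 in every alternative, and the 3 higher in MSC became 1 with a pseudocount of 1, with the replicate block or with an unmoderated t, and 1 to 3 with 1 sample left out. Leaving out a sample also leaves fewer residual degrees of freedom, and otherwise the cause of a change was not tested. The share of all genes called moved as well, from 7.7% higher in JG and 7.63% higher in MSC. It was 17.6% and 16.3% with array weights and 8.32% and 5.97% with a pseudocount of 1. With the replicate block it was 4.96% and 3.9%, and with an unmoderated t 4.46% and 2.76%. The mean of probe sets gave 7.68% and 9.39%, and leaving out genes under the median 11.6% and 13.9%. With 1 sample left out it ran from 3.95% to 14% and from 2.26% to 14.5%. Krt7, Krt8 and Nes kept their direction and call in all 18 alternatives. Member probe sets called higher in JG (5) became 3 with suffix s and x left out or an unmoderated t, and 3 to 5 with 1 sample left out, and those higher in MSC (7) became 4 with a pseudocount of 1, the replicate block or an unmoderated t, and 3 to 9. The 2 other keratins higher in JG became 5 with a pseudocount of 1 or the mean of probe sets, 8 with array weights, 1 with a pseudocount of 64, genes under the median left out or the replicate block, and 0 to 7 with 1 sample left out. The 3 other filament genes higher in MSC became 1 with a pseudocount of 1, either filter on dim genes, trend and robust estimation or the replicate block, 0 with an unmoderated t, and 0 to 2 with 1 sample left out, while the 0 higher in JG became 1 with a pseudocount of 1, array weights or an unmoderated t. Desmosome genes ranged from 2 to 5 higher in JG with 1 sample left out, and from 0 to 1 higher in MSC, where the mean of probe sets also gave 1. Lamina partners had 1 higher in JG with array weights and 0 to 1 with 1 sample left out, and 5 higher in MSC with array weights, 1 with the mean of probe sets and 0 to 4 with 1 sample left out. Partners of desmin higher in JG (2) became 1 with the replicate block or an unmoderated t and 1 to 3 with 1 sample left out, and those higher in MSC (2) became 4 with either filter or array weights and 2 to 3 with 1 sample left out. Genes that were not called changed sign: Krt19 was -0.012 with array weights and ranged from -0.31 to 0.35 with 1 sample left out (negative without MSC sample 3 or JG sample 1), Synm was -0.12 with array weights, and Lmnb1 ranged from -0.71 to 0.081 with 1 sample left out (positive without JG sample 2). The replicate numbers in the titles are not said to pair the groups. Deviations of same-numbered samples from their group means correlated at -0.197, -0.00927 and -0.00753, and those of other pairs at -0.118 to 0.121. With 3 samples per group centred on their mean, these correlations cannot settle whether samples were paired. As far as the labels say, the block shares only a number. With it, Vim had an adjusted p of 0.0565 and Lmna 0.0661. Leaving out genes under the 25th percentile or the median moved the median difference of all genes from 0.07 to -0.07 and -0.30. Signal near the array floor limits the size of the keratin differences.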
